A study of Mus musculus with 8 samples.

Results

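The granins are acidic secretory proteins that fill the dense core granules of endocrine and nerve cells. The genes considered here were Chga, Chgb, Scg2, Scg3, Scg5, Vgf, Pcsk1n and Resp18, and every non-control array probe that carried one of these 8 names was read. There were 10 such probes of 41174 on the array, for 7 of the 8 genes and of 27670 gene symbols in all. Vgf had 0 probes by name or accession and was not analysed here. Whole pancreas was compared between Glis3KO2 mice (4 samples), which the labels give as a Glis3 knockout without naming the deleted part, and wild-type mice (WT, 4 samples). All were C57BL/6 pups aged 1 week that were kept with their mothers, and each RNA sample was hybridised to 1 single-colour Agilent array. Glis3 is a zinc finger transcription factor, and the series title links it to how pancreatic beta cells, the insulin-making cells of the islets, develop and mature.

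Granins are made in the endoplasmic reticulum, aggregate with hormones and calcium in the Golgi and are packed into granules that cells release on demand. Many are also precursors that prohormone convertases cut into smaller peptides, while others escort or inhibit those convertases. In the pancreas they are made by the endocrine cells of the islets, and outside it they mark adrenal chromaffin cells, enteroendocrine cells and neurons.

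Chga and Chgb, the paired chromogranins, moved in opposite directions and are shown first by the oligonucleotides that measured them. Each probe is 60 bases long and its first 30 are given. A second probe named Chgb lay 11.1 kb upstream of the first, and is shown because it carries the same gene name but gave no signal above background.
Chga: acaggcagctttctagaagtttctcttcca
Chgb: tagcgtgacttgtagcgtattcttcctgca
Chgb probe 2: gaggatgctctatactagtaatttgtaaac
In mm7, the build of the file headers, the Chga probe lay at chr12:100060167-100060226, the Chgb probe at chr2:132535820-132535879 and the second Chgb probe at chr2:132524707-132524766, all on the plus strand. The other granins were read at chr1:79656183-79656242 on the minus strand (Scg2), chr9:75680654-75680713 on the minus strand (Scg3) and chr2:113626692-113626751 on the minus strand (Scg5). Resp18 was read at chr1:75500197-75500377 on the minus strand, and the 3 Pcsk1n probes began at 6356291, 6355634 and 6356882 on the X chromosome. An annotation of mm7 was not used here, so exons and UTRs were not assigned.

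The promoters of Chga, the granin with the most negative difference, and of Chgb, Scg2 and Scg3, the 3 with positive ones, are given 5′ to 3′ on the gene's strand as the 250 bases before the RefSeq start. They come from RefSeq's GRCm38.p6 table, in which 7 of the 8 genes matched. Capitals mark TGACG, the core of the cAMP response element, or the whole element TGACGTCA where it stands.
Chga promoter, chr12:102554691-102554940, plus strand: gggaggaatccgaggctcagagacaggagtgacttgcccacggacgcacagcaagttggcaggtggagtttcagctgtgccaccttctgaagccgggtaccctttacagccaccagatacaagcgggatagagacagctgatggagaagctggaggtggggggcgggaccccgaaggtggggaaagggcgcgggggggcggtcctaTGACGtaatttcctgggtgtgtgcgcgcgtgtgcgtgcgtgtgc
Chgb promoter, chr2:132781392-132781641, plus strand: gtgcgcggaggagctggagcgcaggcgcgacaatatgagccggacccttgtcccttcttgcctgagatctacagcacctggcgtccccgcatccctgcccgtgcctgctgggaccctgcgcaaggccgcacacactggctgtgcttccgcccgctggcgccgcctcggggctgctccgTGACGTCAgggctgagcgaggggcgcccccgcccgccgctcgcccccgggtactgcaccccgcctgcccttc
Scg2 promoter, chr1:79440027-79440276, minus strand: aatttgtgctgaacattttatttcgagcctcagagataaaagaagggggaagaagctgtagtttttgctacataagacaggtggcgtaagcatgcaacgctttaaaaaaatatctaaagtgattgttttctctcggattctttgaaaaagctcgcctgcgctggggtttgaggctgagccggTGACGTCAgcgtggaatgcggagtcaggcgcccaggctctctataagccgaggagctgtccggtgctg
Scg3 promoter, chr9:75684057-75684306, minus strand: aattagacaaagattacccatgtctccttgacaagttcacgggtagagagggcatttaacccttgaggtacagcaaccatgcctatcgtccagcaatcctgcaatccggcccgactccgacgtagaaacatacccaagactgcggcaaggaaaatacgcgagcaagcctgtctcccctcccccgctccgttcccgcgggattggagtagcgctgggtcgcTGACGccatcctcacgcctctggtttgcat
TGACGTCA reads the same on both strands, holds the core on each, and began 72 bases before the start in Chgb and 68 bases before it in Scg2. On either strand it was found in 2 of the 7 granin windows and in 1.55% of 32851 mouse promoter windows of the same length. The core TGACG was in 5 of 7 windows, at 44 bases before the start in Chga, 30 in Scg3 and 175 in Scg5, against 17.8% of all windows. TGGGGGGT, the core of a site described for Gli-similar factors, was in 0 of 7 windows and in 1.36% of all. The E-box CANNTG was in 6 of 7, all but Scg3, and in 66.2% of all. These are letter matches and do not show that a factor binds there.

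Signals are given as log2 of the processed spot signal minus the log2 75th percentile of the same array, so that 0 is the 75th percentile and each unit is a doubling. Before scaling, that percentile lay between 460 and 694, and 76.1% to 86.5% of probes per array were well above background by the scanner software's own call. All 4 Glis3KO2 arrays lay on 1 slide and all 4 WT arrays on another, which means that the effects of slide, scan and genotype cannot be told apart here. Xist, a transcript of the silenced female X, was high on 3 Glis3KO2 arrays and 1 WT array. Whether pups of a genotype shared a litter is not in the labels, and the p-values cover the spread among these 8 samples alone. With 4 arrays a genotype, precision is limited. The Glis3 probe read -6.06, -6.43, -5.93 and -6.15 on the Glis3KO2 arrays, none of them well above background, against -6.06, -5.41, -5.50 and -5.35 on the WT arrays, 3 of them well above background. It was too dim to be tested, and it is not known whether it lies in the deleted part.

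Of the 10 granin probes, 9 entered the test, and all 9 were well above background on all 8 arrays. The remaining one, the second Chgb probe, was well above background on 0 arrays, and its values of -7.97 to -6.59 in Glis3KO2 and -8.39 to -7.00 in WT have no fold. With limma and Benjamini-Hochberg adjustment over 33238 probes, 1 granin gene was higher in Glis3KO2 (Chgb), 1 was lower (Chga) and 5 did not pass. Over all tested probes 0.0812% were called higher and 0.174% lower, 0.256% in all. The Glis3KO2 and WT arrays did not overlap in 4 of the 7 genes, read from the brightest probe of each, against 5.2% of all tested probes. Unadjusted p was below 0.05 in 6 of the 7 genes and in 8.98% of all tested probes. The genes were chosen with earlier results of these data known, and the brightest probe per gene is set beside all probes. These contrasts are thus a description and no test of the family. The 7 differences had a median of -0.25, beside -0.01 over all tested probes, with 3 positive and 4 negative. In whole tissue, fewer cells of a type and less RNA per cell cannot be told apart.

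Chga encodes chromogranin A, a granule matrix protein and the precursor of pancreastatin and other peptides. Its signal was 5.13, 4.71, 4.42 and 4.18 on the 4 Glis3KO2 arrays, against 6.52, 6.30, 6.66 and 6.68 on the 4 WT arrays. Every Glis3KO2 array lay below every WT array, with more than 1 log2 unit between the groups. Chga averaged 4.61 ± 0.41 in Glis3KO2 and 6.54 ± 0.18 in WT (SD, n = 4 each). It was 3.80-fold lower in Glis3KO2, a log2 difference of -1.93 (SE 0.20, 95% confidence interval -2.38 to -1.47, limma adjusted p = 0.00590), the 28th most negative difference of all tested probes. In unscaled signal units, Chga read 9901 to 16226 on Glis3KO2 arrays and 36160 to 53305 on WT arrays. Its difference was -2.10 to -1.78 when each array was left out in turn, with limma adjusted p of 0.00376 to 0.0362. It did not pass with Xist level as a covariate (-1.94, limma adjusted p = 0.0531) or without Glis3KO2 replicates 3 and 4, the pair farthest along the first principal component (-1.61, limma adjusted p = 0.0522).

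Chgb encodes chromogranin B, a granule matrix protein of the same kind that Chga encodes. It went the other way, with 7.26, 6.29, 6.34 and 6.57 on the Glis3KO2 arrays against 4.65, 4.70, 5.04 and 5.01 on the WT arrays. Every Glis3KO2 array lay above every WT array, and Glis3KO2 replicate 1 was the highest of all. Chgb averaged 6.62 ± 0.45 in Glis3KO2 and 4.85 ± 0.20 in WT (SD, n = 4 each). It was 3.40-fold higher in Glis3KO2, a log2 difference of 1.77 (SE 0.22, 95% confidence interval 1.28 to 2.26, limma adjusted p = 0.0167), the 19th most positive difference of all tested probes. In unscaled signal units, Chgb read 44290 to 70916 on Glis3KO2 arrays and 11932 to 17354 on WT arrays, and no spot was saturated. The call did not hold when any WT array or Glis3KO2 replicate 4 was left out. Leaving out WT replicate 1, 2, 3 or 4 gave differences of 1.70, 1.72, 1.83 and 1.82 with limma adjusted p of 0.0677, 0.0599, 0.0579 and 0.0620. Leaving out Glis3KO2 replicate 4 gave 1.78 (limma adjusted p = 0.0670), and leaving out Glis3KO2 replicates 3 and 4 together gave 1.93 (limma adjusted p = 0.122). With Xist level as a covariate the difference was 1.61 (limma adjusted p = 0.116).

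**Figure D1:**
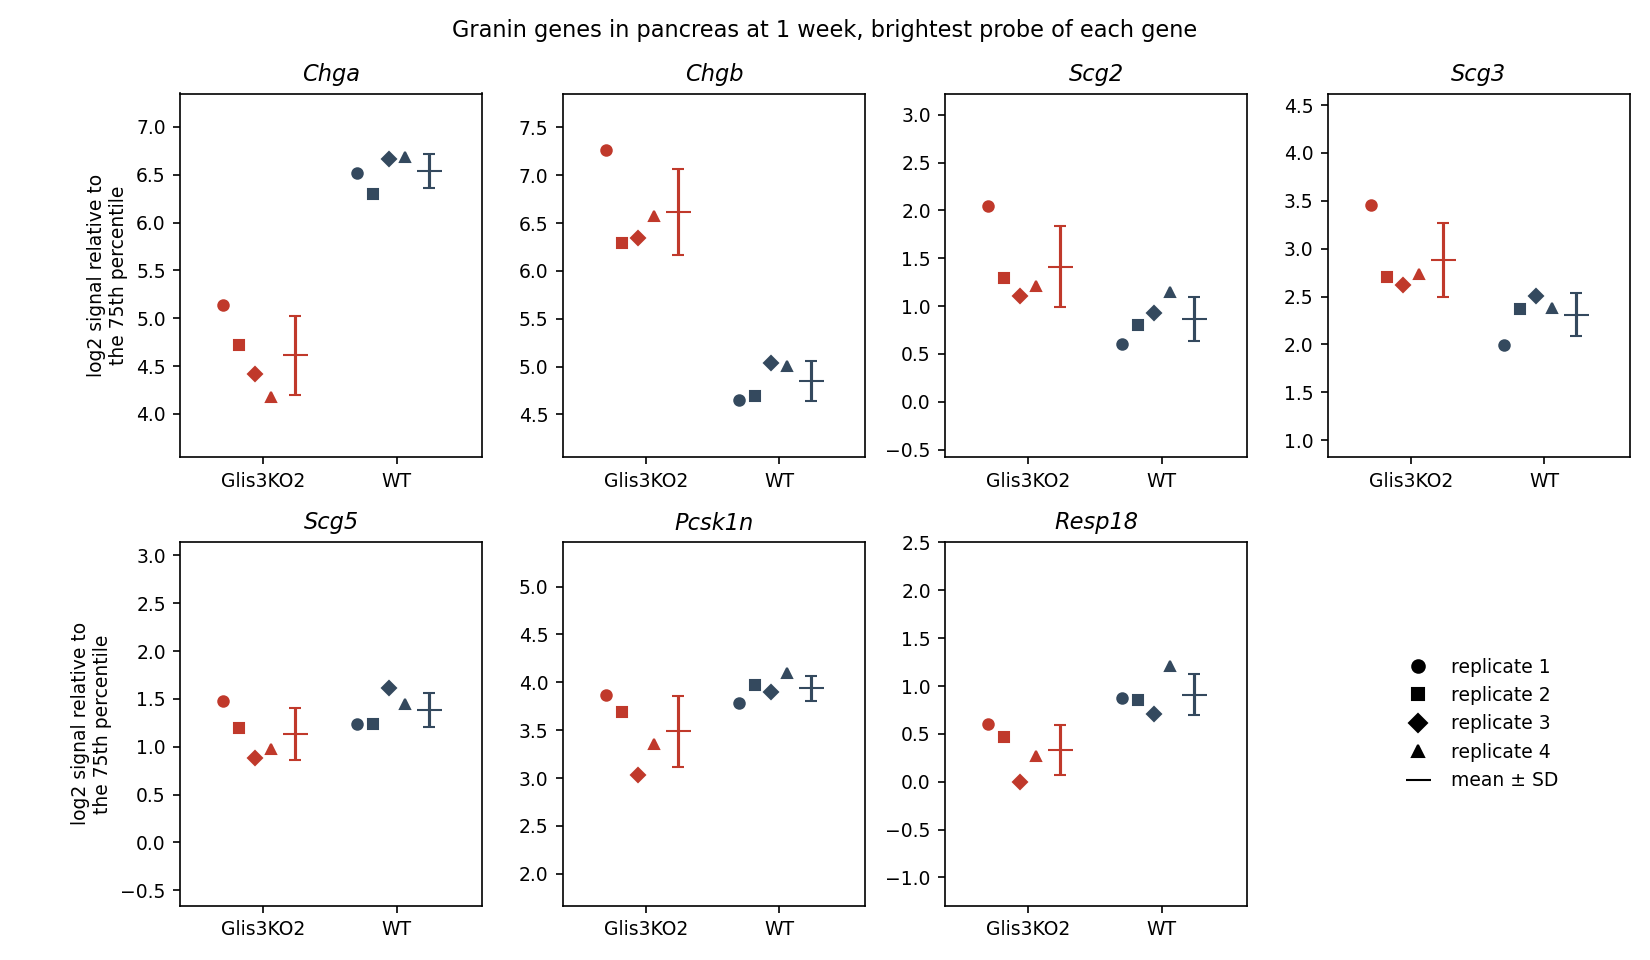
Log2 signal, scaled to each array's 75th percentile, for the brightest probe of each of the 7 granin genes, with Glis3KO2 arrays left of WT arrays in each panel, 1 marker per array, and the mean ± SD beside them. All panels span the same log2 range. Chga lies lower and Chgb higher in Glis3KO2 with clear gaps, Scg3 and Resp18 are separated by small gaps, and Scg2, Scg5 and Pcsk1n overlap.

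The Chgb probe was printed at 10 spots on each array, which gave a measure of the error between spots within an array. It does not cover error from labelling, hybridisation, slide or scan. The 10 spots of an array had an SD of 0.05 to 0.11 log2 units, against 0.45 between Glis3KO2 arrays and 0.20 between WT arrays. The lowest of the Glis3KO2 spots read 6.19 and the highest of the WT spots 5.10, so no spot of either genotype reached the other. Taken one at a time, the 10 spots gave differences of 1.69 to 1.83. These spot values include flagged readings, which were dropped from the array averages.

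**Figure D2:**
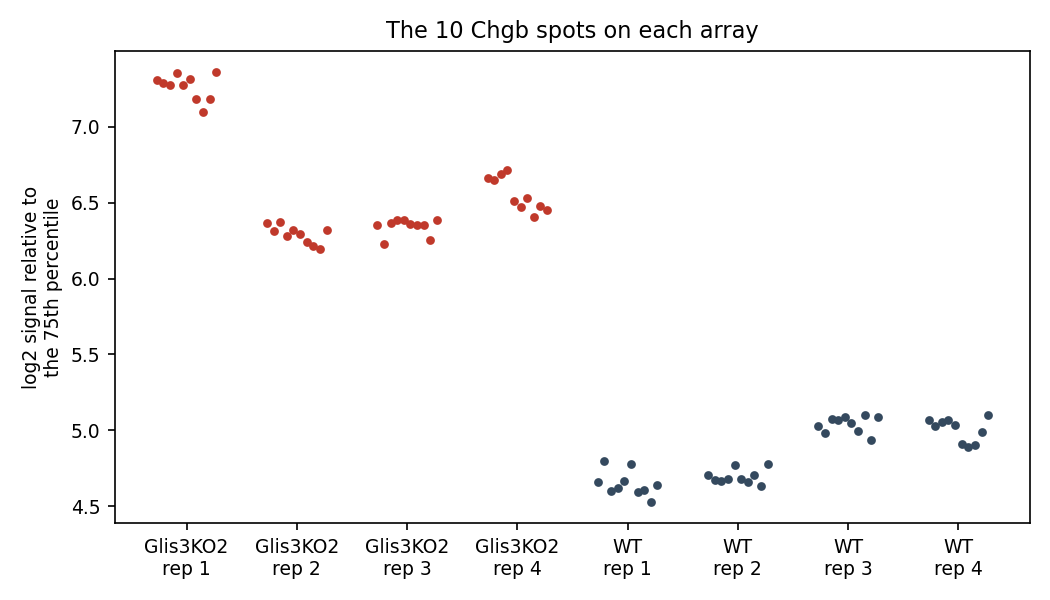
Log2 signal of each of the 10 Chgb spots on every array, scaled to the 75th percentile, with Glis3KO2 arrays left of WT arrays. Flagged readings are included. Spots of an array lie close together, and all Glis3KO2 spots (6.19 or higher) lie above all WT spots (5.10 or lower).

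Within each array, Chgb was set against Chga. The pair was chosen with the opposite differences of both genes known, so the ratio is a description with no test. The probes differ in response, so the ratio is compared between arrays and its distance from 0 is not read. The log2 ratio of Chgb to Chga was 2.13, 1.58, 1.92 and 2.39 on the Glis3KO2 arrays, against -1.87, -1.60, -1.62 and -1.67 on the WT arrays. The groups were 3.18 log2 units apart at their nearest arrays. The mean ratio was 2.0 ± 0.34 in Glis3KO2 and -1.69 ± 0.12 in WT (SD, n = 4 each), a difference of 3.69, or 12.9-fold. Among arrays with high Xist, the ratio was 1.92 to 2.39 on 3 Glis3KO2 arrays and -1.67 on 1 WT array. Among arrays with low Xist, it was 1.58 on 1 Glis3KO2 array and -1.87 to -1.60 on 3 WT arrays. Leaving out each array in turn left the difference between 3.56 and 3.84.

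**Figure D3:**
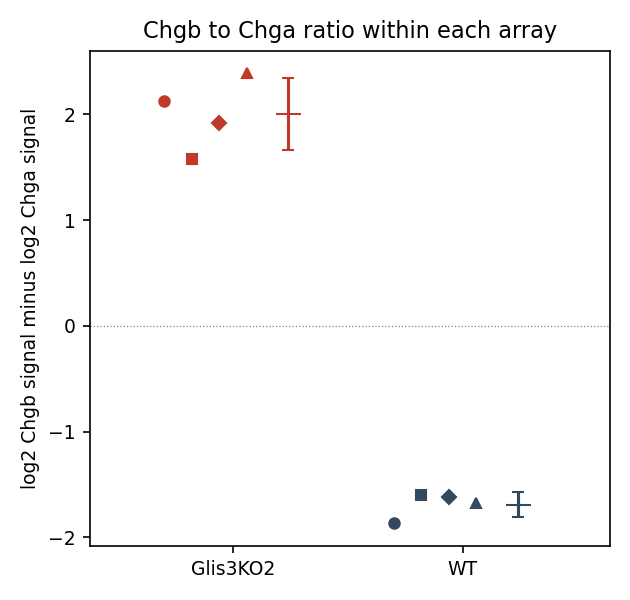
Log2 ratio of the Chgb signal to the Chga signal on each array, with Glis3KO2 arrays left of WT arrays and the mean ± SD beside them. The Glis3KO2 arrays lie between 1.58 and 2.39 and the WT arrays between -1.87 and -1.60.

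The secretogranins Scg2 and Scg3 had positive differences that did not pass. Scg2 encodes secretogranin II, the precursor of secretoneurin, and read 2.04, 1.30, 1.10 and 1.21 on Glis3KO2 arrays against 0.60, 0.80, 0.92 and 1.15 on WT arrays. The groups overlapped, with WT replicate 4 above Glis3KO2 replicate 3, and the difference was 0.55 (95% confidence interval 0.06 to 1.03, limma adjusted p = 0.501). Scg3 encodes secretogranin III, which binds chromogranin A and cholesterol-rich granule membrane. Scg3 read 3.45, 2.71, 2.62 and 2.74 on Glis3KO2 arrays, against 1.99, 2.37, 2.51 and 2.38 on WT arrays. These groups did not overlap, though Glis3KO2 replicate 3 and WT replicate 3 were close, and the difference was 0.57 (95% confidence interval 0.12 to 1.02, limma adjusted p = 0.445). Both had their highest value on Glis3KO2 replicate 1, without which the differences were 0.34 for Scg2 and 0.38 for Scg3.

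The granins that act on prohormone convertases had negative differences that did not pass. Scg5 encodes the chaperone 7B2, which keeps the convertase PC2 inactive until it reaches the granule. Scg5 read 1.48, 1.20, 0.88 and 0.98 on Glis3KO2 arrays against 1.24, 1.24, 1.61 and 1.45 on WT arrays. The groups overlapped, and the difference was -0.25 (95% confidence interval -0.60 to 0.10, limma adjusted p = 0.690), or -0.17 without Glis3KO2 replicate 3. Pcsk1n encodes proSAAS, an inhibitor of the convertase PC1/3. Its brightest probe read 3.87, 3.69, 3.04 and 3.36 on Glis3KO2 arrays against 3.78, 3.97, 3.90 and 4.10 on WT arrays, which overlapped, with a difference of -0.45 (95% confidence interval -0.86 to -0.05, limma adjusted p = 0.505). A second Pcsk1n probe read 1.47 to 2.12 in Glis3KO2 and 2.34 to 2.51 in WT, without overlap, and differed by -0.59 (limma adjusted p = 0.301). The third read -4.83 to -3.27 in Glis3KO2 and -3.94 to -2.99 in WT, overlapped, and differed by -0.67 (limma adjusted p = 0.596), or -0.95 to -0.43 with single arrays left out. All 3 Pcsk1n probes thus had a negative difference, and none passed.

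Resp18 encodes a small endocrine protein of the secretory pathway that is related to the granule membrane protein Ptprn. Resp18 read 0.60, 0.47, -0.003 and 0.27 on Glis3KO2 arrays, against 0.87, 0.85, 0.71 and 1.21 on WT arrays. Every Glis3KO2 array lay below every WT array. The means were 0.33 ± 0.26 in Glis3KO2 and 0.91 ± 0.21 in WT (SD, n = 4 each), with a difference of -0.58 (95% confidence interval -0.94 to -0.21, limma adjusted p = 0.319). None of the 5 genes Scg2, Scg3, Scg5, Pcsk1n and Resp18 passed under any of the alternative settings run.

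Glis3KO2 replicate 1 was the highest of the 4 Glis3KO2 arrays in 7 of 7 granin genes, whichever way the gene differed from WT. Over 33195 tested probes it was the highest in 34.6%. Glis3KO2 replicate 3 was the lowest in 5 of 7, against 26.0% of those probes.

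Genes with array profiles most like those of Chga and Chgb were ranked among 18385 genes by the root mean square difference between profiles centred on their own mean over the 8 arrays, as a description. Nearest to Chga were Galnt14, an enzyme that adds O-linked sugars (0.13, genotype difference -1.91), the pancreatic polypeptide gene Ppy (0.20, -2.01), the granule zinc transporter Slc30a8 (0.24, -1.48) and the peptide hormone Ucn3 (0.25, -1.92). Nearest to Chgb were Sptssb, a subunit of serine palmitoyltransferase (0.30, 1.46), Cyp4f14 (0.36, 1.41), 1600029I14Rik (0.36, 1.94) and Arhgap36 (0.37, 1.36). Of these, 1600029I14Rik and Arhgap36 did not pass, with limma adjusted p of 0.144 and 0.231. Among the granins, Resp18 ranked 215th and Pcsk1n 401st by likeness to Chga, while Chgb ranked 18323rd. Scg3 ranked 61st and Scg2 70th by likeness to Chgb, while Chga ranked 18320th. Scg5 ranked 1152nd for Chga and 14602nd for Chgb. The profiles span both genotypes, so these ranks largely restate the genotype differences and add no separate evidence.

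The granins were then set beside the other contents of the granule, by lists written with earlier results of these arrays known. Of 8 islet hormone genes, 6 had a limma unadjusted p below 0.05 and the median difference was -0.72. After adjustment 3 passed, all lower in Glis3KO2. They were Ins2 (-3.70, limma adjusted p = 0.000536), Ins1 (-2.54, limma adjusted p = 0.00132) and Ppy (-2.01, limma adjusted p = 0.00648). Ppy did not pass with the Xist covariate (limma adjusted p = 0.0664) or without Glis3KO2 replicates 3 and 4 (limma adjusted p = 0.0821). Nor did Ppy pass with replicate number as a block in the fit (limma adjusted p = 0.109). Iapp, the amylin gene that beta cells secrete with insulin, differed by 0.45 (limma adjusted p = 0.688) and read 6.84 to 8.17 in Glis3KO2 and 6.57 to 6.99 in WT. Its difference was 0.15 without Glis3KO2 replicate 1. Gcg differed by -0.46 and Sst by -0.72, and neither passed, though Sst did without Glis3KO2 replicate 1 (-0.87, limma adjusted p = 0.0424).

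Of 8 genes for prohormone processing enzymes, 0 passed in either direction with limma, 2 had an unadjusted p below 0.05 and the median was 0.03. Pcsk1, which Pcsk1n inhibits, differed by 0.66 (limma adjusted p = 0.279) and Pcsk2, the partner of Scg5, by -0.17 (limma adjusted p = 0.830). The Pcsk2 difference was -0.05 without Glis3KO2 replicate 3 and 0.12 without Glis3KO2 replicates 3 and 4. Of 24 genes for granule membrane and sorting proteins, 1 passed (Slc30a8, lower), 9 had an unadjusted p below 0.05 and the median was -0.14. Of the 24 differences 19 were negative, while 48.0% of all tested probes had a positive one. Ptprn differed by 0.21 and did not pass, and its difference was -0.05 without Glis3KO2 replicate 1. Of 18 other secreted peptide genes, Pdyn (prodynorphin) was higher by 4.84 (limma adjusted p = 0.00271) and Cck (cholecystokinin) by 4.44 (limma adjusted p = 0.0286). Ucn3 was lower (-1.92, limma adjusted p = 0.0434), 7 of the 18 had an unadjusted p below 0.05 and the median of the 18 was 0.20. The calls for Cck, Slc30a8 and Ucn3 were lost when some single arrays were left out, with limma adjusted p up to 0.132, 0.136 and 0.176, and for Ucn3 leaving out any single array sufficed. Over all 19 alternatives run, Pdyn did not pass in 1, Cck in 10, Slc30a8 in 11 and Ucn3 in 12. The highest limma adjusted p among them was 0.0511 for Pdyn, 0.144 for Cck, 0.227 for Slc30a8 and 0.241 for Ucn3. Of 15 transcription factors of endocrine cells, 0 passed with limma, 8 had an unadjusted p below 0.05 and the median was -0.44. Neurod1, which drives endocrine genes, differed by -1.38 (limma adjusted p = 0.110, and 0.0304 to 0.389 over the alternatives), and Rest, a repressor of neuronal genes, by 0.02 without passing, with a sign that turned when some single arrays were left out.

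**Figure D4:**
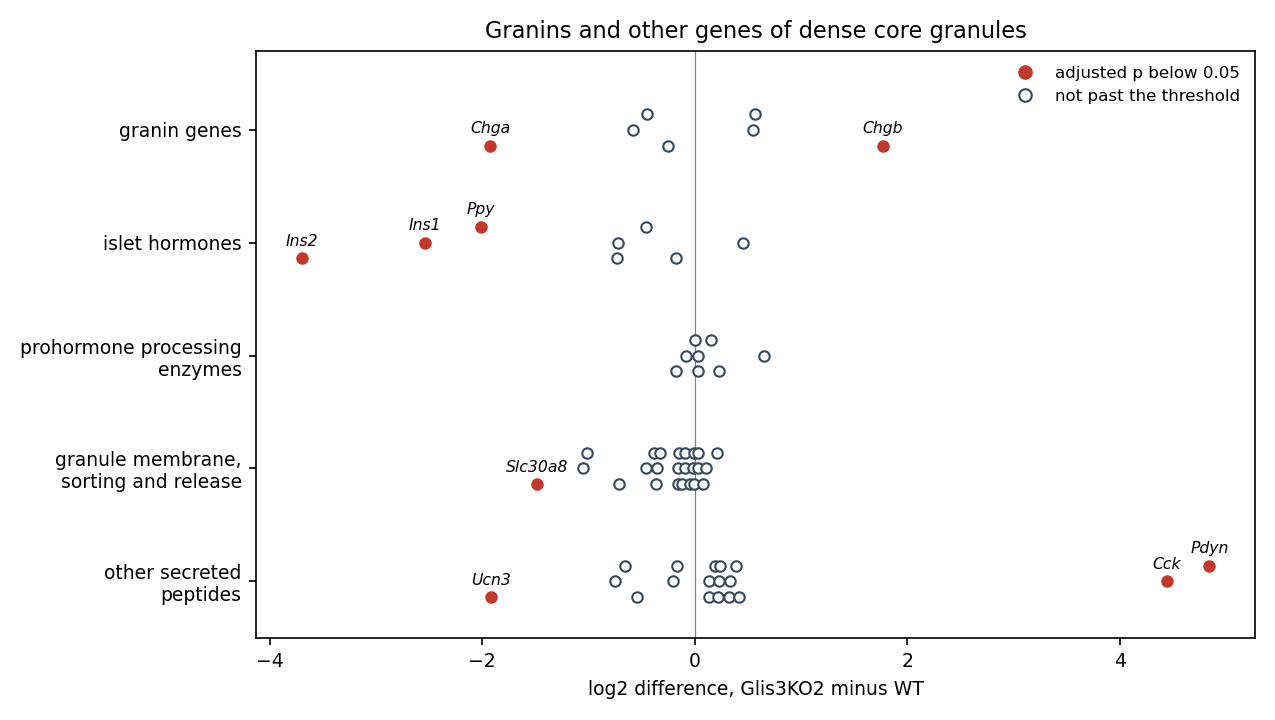
Log2 difference, Glis3KO2 minus WT, for each tested gene of the granin family and of 4 further lists (islet hormones, processing enzymes, granule membrane and sorting proteins, other secreted peptides). Filled points passed the limma test. Chgb (1.77), Cck (4.44) and Pdyn (4.84) lie to the right of 0. Slc30a8 (-1.48), Ucn3 (-1.92), Chga (-1.93), Ppy (-2.01), Ins1 (-2.54) and Ins2 (-3.70) lie to the left.

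Markers of the cells that make granins were summed on each array, as multiples of the array's 75th percentile signal. Beta cell markers, with 10 of 10 well above background on all 8 arrays, summed to 192 to 397 in Glis3KO2 and 734 to 904 in WT, and 7 of the 10 were lower by the limma test. That count was 3 to 6 with 1 array left out, at 3 without WT replicate 1, 3 or 4 or Glis3KO2 replicate 3 or 4 and at 4 without WT replicate 2 or Glis3KO2 replicate 2. It was 3 with the Xist covariate and 2 without Glis3KO2 replicates 3 and 4. The beta cell sum was mostly Iapp on the Glis3KO2 arrays and mostly Ins2 on the WT arrays. The 3 beta cell markers that did not pass in the main fit were Iapp (0.45), Pdx1 (-0.06) and Mafa (-0.75). Alpha cell markers summed to 107 to 175 in Glis3KO2 and 176 to 199 in WT, delta cell markers to 37.4 to 47.2 in Glis3KO2 and 43.1 to 53.5 in WT, and pancreatic polypeptide cell markers to 78.3 to 99.4 in Glis3KO2 and 100.2 to 117 in WT. The last sum was again mostly Pyy, a gene that enteroendocrine cells share, and Ppy alone was 1.41 to 2.42 in Glis3KO2 and 5.51 to 9.47 in WT. The beta, alpha and pancreatic polypeptide cell sums did not overlap between genotypes and were lower in Glis3KO2. In this they were like Chga and unlike Chgb, while the delta cell sums overlapped. The delta markers Sst (-0.72) and Rbp4 (0.39) went opposite ways, each without overlap and without passing, and Lmx1a was well above background on 0 arrays. Also lower without overlap were Ghrl, the 1 epsilon cell marker (1.01 to 1.26 in Glis3KO2, 1.57 to 2.13 in WT), and the peripheral nerve and glia sum given below. The part of these cells in either result was not tested.

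Granins are also made by nerve, adrenal medulla and gut endocrine cells. Peripheral nerve and glia markers, 11 of 12 well above background on all 8 arrays, summed to 4.38 to 5.45 in Glis3KO2 and 5.55 to 6.70 in WT. These sums did not overlap and were lower in Glis3KO2. Of the 11 tested, 10 were negative in difference, though 0 passed with limma and 4 had an unadjusted p below 0.05. Adrenal medulla markers, 5 of 7 well above background on all 8 arrays and Chrna3 on none, summed to 0.627 to 0.892 in Glis3KO2 and 0.706 to 0.804 in WT. Of 7 enteroendocrine markers, 6 had a positive difference, the median was 0.24 and Cck was the 1 that passed, higher. Their sum, 78.2 to 99.3 in Glis3KO2 and 93.0 to 109 in WT, was mostly Pyy, which differed by -0.18 and did not pass. Without Pyy the sum was 1.33 to 4.45 in Glis3KO2 and 0.711 to 0.897 in WT, higher on every Glis3KO2 array, as Chgb was. Without Pyy and Cck it was 0.690 to 1.08 in Glis3KO2 and 0.657 to 0.834 in WT, and overlapped. The part of these cells in the Chgb result was not tested. Acinar markers, which mark the enzyme-making bulk of the tissue, summed to 2239 to 2962 in Glis3KO2 and 2583 to 3062 in WT.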

How the data were processed

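Total RNA of whole pancreas, 500 ng per sample, was labelled with Cy3 per the labels' protocols. The deposited values are linear intensity readings per spot, made with Agilent Feature Extraction 9.5.3.1 per the file headers (9.5 per the submitters' processing notes), with positions in mm7. They were not scaled between arrays. The deposited series table held the same 45018 values.

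From these, log2 processed signals were taken and scaled by subtracting the 75th percentile of the non-control spots of that array. Flagged spots (56 to 130 per array) were dropped and spots of a probe averaged. Probes well above background on at least 4 of 8 arrays were tested, 33238 in all, with limma 3.58.1 in R 4.3.3 (lmFit and eBayes, 2-sided, genotype as the sole term), Benjamini-Hochberg adjustment over all of them and a threshold of 0.05. Groups came from the sample titles. The brightest probe stood for a gene, by its mean over the 8 arrays, and 22951 probes were named through a RefSeq accession. The fit was also run on simulated arrays with independent noise per probe and planted differences. That simulation held no effect of slide, sex or single arrays, and so does not cover them. Python 3.11.15 drew the figures.

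Members and lists were chosen with earlier results of these data known. Named genes were all members, genes of each list past the threshold (at most 6), a set of hormone and granule genes, and the 4 profiles nearest to Chga and Chgb. Alternatives were normexp background (offset 50), quantile and median scaling, no filter or a filter on all 8 arrays, the series table, a replicate block, trend and robust settings, array weights, Xist as a covariate, the second Chgb probe and leaving out arrays.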

Additional observations from a re-analysis of the deposited data

Results flagged for a closer look

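Among 64 groups of 4 arrays that were checked, 3 held a value far from the other 3, and chance gives about 1 in 20. Scg3 on Glis3KO2 replicate 1 read 3.45, against 2.62 to 2.74 on the other Glis3KO2 arrays. Without that array the Scg3 difference was 0.38, the lowest of those with 1 array left out, and it did not pass with or without it. Ptprn2, a granule membrane phosphatase, read -4.33 on WT replicate 2, against -4.70 to -4.64 on the other WT arrays. Ucn3 read -4.32 on Glis3KO2 replicate 4, against -3.37 to -3.18 on the other Glis3KO2 arrays.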

How the results depend on the processing

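No direction was reversed in the tested granins under any alternative run. The count of all tested probes past the threshold, 85, became 51 with no filter on dim probes, 142 with trend and robust settings, 27 with Xist as a covariate, 35 to 96 with 1 array left out and 11 without Glis3KO2 replicates 3 and 4. Deviations of same-numbered arrays correlated at -0.04 to 0.24, beside -0.20 to 0.14 for unlike numbers, and 2 of 4 arrays correlated best with their own number. These few correlations cannot show whether the numbers in the titles pair the samples, and the main fit did not pair them. With the replicate block 15 probes passed, and Chga (-1.93, limma adjusted p = 0.0956) and Chgb (1.77, limma adjusted p = 0.146) did not. Chga did not pass in 3 of 19 alternatives, namely that block, the Xist covariate (-1.94, limma adjusted p = 0.0531) and the fit without Glis3KO2 replicates 3 and 4 (-1.61, limma adjusted p = 0.0522). Chgb did not pass in 8 of 19, which were the same 3 (1.77, 1.61 and 1.93) and leaving out 1 of 5 arrays, within a range of 1.55 to 1.88 over all single arrays. In these alternatives the count of granin probes past the threshold was 0 in place of 1 in that direction, a range of 0 to 1 higher and 1 to 1 lower with 1 array left out. With normexp background Chga differed by -1.92 and Chgb by 1.77. The Chgb to Chga ratio differed by 3.54 to 3.84, except for 2.33 with the second Chgb probe, which is below background. Single Chgb spots gave 3.61 to 3.75. They, the counts per list and the marker sums without Pyy were chosen after seeing the data.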
